A study of Mus musculus with 4 samples.

Results

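Distal accessible regions of mouse aortic chromatin that hold a perfect AP-1 site are described here. They are ATAC-seq peaks on chromosomes 1 to 19 whose nearer edge lay more than 3 kb from every transcription start site (TSS) of the GENCODE vM21 annotation, and whose 300-bp window around the summit held the 7-bp TPA response element (TRE). The TRE is TGACTCA on one strand and TGAGTCA on the opposite strand, so that a central C or G is the same site read in either direction. A total of 1691 of the 8952 distal peaks in the control female list met the rule (18.9%, 95% Wilson interval 18.1 to 19.7), and 3378 of the 21638 in the VEDS male list (15.6%, 15.1 to 16.1). These lists held 20655 and 40483 peaks on those chromosomes, of 64360 peaks in all 4 lists of the series. Merged by position, the members made 3601 regions, of which 1461 held members of both lists, 225 a control member alone and 1915 a VEDS member alone.

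ATAC-seq uses the Tn5 transposase to cut and tag open DNA, so that an accessible region shows as a pile of fragments. Aortic nuclei were taken at 60 days of age (P60) from control mice (Col3a1+/+, with no treatment) and from VEDS mice (Col3a1G938D/+, labelled as disease), which carry a glycine substitution in 1 allele of type III collagen and model vascular Ehlers-Danlos syndrome. Each genotype had 1 female and 1 male library, each pooled from 2 mice and prepared with a single-cell ATAC kit but analyzed in aggregate. The control male and VEDS female lists held only 1236 and 504 peaks, so the members come from the control female list (21176 peaks) and the VEDS male list (41444 peaks), and genotype, sex, library and depth cannot be told apart.

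No p-value is given, because each genotype had 1 long list, and the intervals below cover counting error among peaks of that list only. As a check of the tissue, all 7 marker genes of vascular smooth muscle cells (VSMC) had a promoter peak in both long lists. The corresponding counts of 7 were 1 and 6 for endothelial, 3 and 2 for fibroblast, 1 and 3 for adipocyte, 0 and 1 for immune and 0 and 1 for striated muscle markers, the control female list first. In aggregate data, more cells of a type and more open chromatin per cell cannot be told apart. The part of the endothelial difference in the results below was not tested.

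AP-1 is a dimer of basic leucine zipper proteins, of which one partner comes from the JUN family (JUN, JUNB, JUND) and the other from the JUN, FOS (FOS, FOSB, FOSL1, FOSL2) or related ATF families. It binds the TRE mostly at enhancers away from promoters, where it is known to help open chromatin with lineage factors such as TEAD, RUNX and MEF2. In the vessel wall, AP-1 takes part in responses to stretch, growth factors and injury, and its known target genes include matrix proteases, protease inhibitors and matrix proteins. The dimers of the JUN and FOS families share this site, so a TRE does not tell which of them, if any, was bound.

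The sequences below were read from GRCm38 (mm10) and show the site of 11 members that carry the results. They are oriented 5′ to 3′ on the strand that reads TGAGTCA, with 11 bases on each side, the TRE in capitals and the position of the 7 capitals beside the name of the nearest gene. The first 7 lie near genes of contraction, VSMC identity, matrix, TGF-beta signalling, the immediate-early response and energy sensing, and the last 4 are the member of highest −log10 q in the VEDS male list (Gm16505), the member of highest −log10 q in the control female list (Zfp869), the highest VEDS male member with no control female peak (Sema5b) and the highest control female member with no VEDS male peak (Gm38082).
Acta2 (chr19:34265856-34265862, plus strand): aaggcagctttTGAGTCAcaggcctttgc
Myocd (chr11:65209762-65209768, plus strand): gattagatgaaTGAGTCAgctgtactttc
Jag1 (chr2:137049598-137049604, plus strand): ttattatgaaaTGAGTCActgtatttttc
Col18a1 (chr10:77206757-77206763, plus strand): tgggaccctgcTGAGTCAtagcttcctct
Tgfbr2 (chr9:116153156-116153162, minus strand): atcccactgccTGAGTCAaccccgtgggc
Ier3 (chr17:35813399-35813405, plus strand): taacttggttcTGAGTCAcatggcatctc
Prkag2 (chr5:25007092-25007098, plus strand): gacaggctggaTGAGTCAcgtttttcaga
Gm16505 (chr13:3373128-3373134, plus strand): gttttgccctcTGAGTCAtcgcacatgca
Zfp869 (chr8:69717011-69717017, minus strand): agcaatggaatTGAGTCAtccacgcagct
Sema5b (chr16:35633222-35633228, plus strand): aatctgggcagTGAGTCAccctaagcaca
Gm38082 (chr5:136458638-136458644, plus strand): caatcaatcctTGAGTCAgagtggagtaa

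The TRE was a feature of peaks away from promoters in both long lists. Among peaks within 3 kb of a TSS, 738 of 11703 in the control female list (6.31%) and 1361 of 18845 in the VEDS male list (7.22%) held one, 12.6 percentage points (95% interval 11.7 to 13.5) and 8.39 points (7.78 to 9.0) fewer than among distal peaks. The share rose in steps with distance from the TSS and then levelled. It was 3.50% and 3.81% for peaks over a TSS, 9.10% and 9.82% for other peaks up to 1 kb away, and 17.5% and 14.9% between 1 and 3 kb, just outside the rule. Just inside the rule, between 3 and 10 kb, it was 18.1% and 15.2%, and beyond 100 kb it was 19.3% and 16.1%. Among distal peaks, members lay at a median of 15014 and 14543 bp from the nearest TSS, against 14349 and 14210 bp for distal peaks without a TRE, and the farthest lay about 460 kb away.

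**Figure D1:**
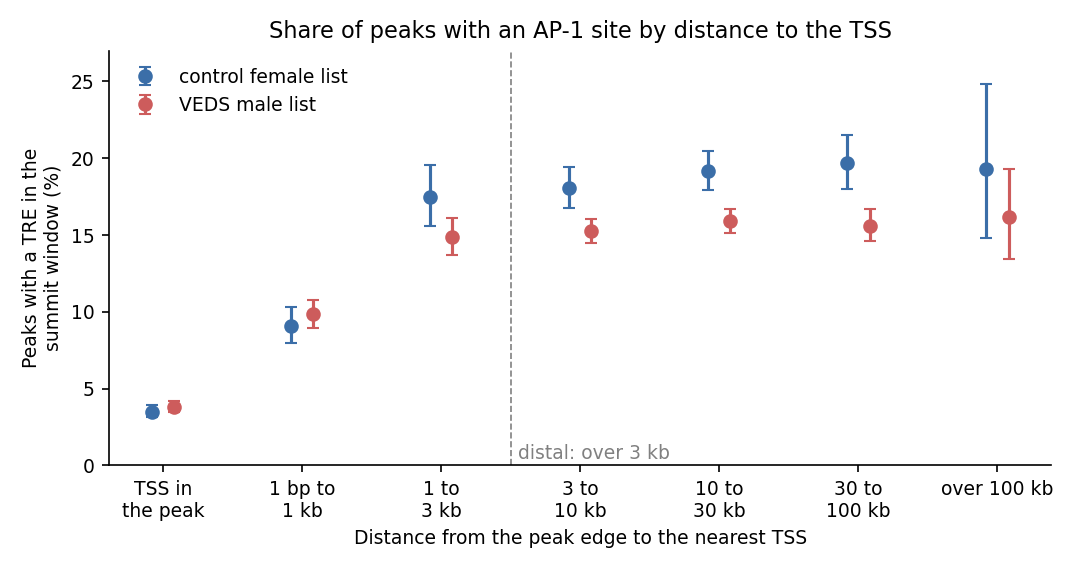
Share of peaks with a TRE in the 300-bp summit window (vertical axis, percent) by distance of the peak edge from the nearest TSS (horizontal axis, 7 bins), for the control female and VEDS male lists, with 95% Wilson intervals as bars. The share climbs from 3.50% and 3.81% over a TSS to 18.1% and 15.2% at 3 to 10 kb and stays near that level beyond.

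Members lay in introns in 52.4% of cases in the control female list and 55.3% in the VEDS male list, and between genes in 44.6% and 41.5%. Distal peaks without a TRE had a similar division, with 52.3% and 53.9% in introns and 44.8% and 42.4% between genes. Coding exons held few members, 0.414% and 0.444%, against 0.716% and 1.14% of other distal peaks (-0.302 points, -0.610 to 0.168, and -0.701 points, -0.941 to -0.379). One of the members in coding exons had its TRE at chr2:137067905-137067911. The nearest TSS was that of *Jag1*, but the exon need not be of that gene. A clearer difference lay in repeats, since only 1.30% and 2.28% of the members had over 50% of their bases in the repeat-masked part of the reference, against 8.06% and 8.48% of the other distal peaks (differences of -6.76 and -6.20 points).

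Most members held a single TRE. There was 1 in 1491 of the control female members and 3031 of the VEDS male members, 2 in 184 and 322, and 3 or more in 16 and 25. The windows with most TREs were repeats or clusters of sites: a VEDS male peak near *Gm44221* held 7 with 58.8% of its bases masked, and a peak near *Kdelr2* held 5 in both lists. Another example was a member nearest *Gm2059* whose nearest protein-coding gene was *Hmox1*, which encodes a haem-degrading enzyme known for stress-responsive upstream enhancers. It lay 9530 bp from that gene, held 3 TREs, 1 of them at chr8:75084008-75084014, and had a −log10 q of 22.9 in the control female list and 52.1 in the VEDS male list. The mouse chromosomes 1 to 19 hold 396904 TREs, and the 4033 distinct ones in the members were 1.02% of them (95% interval 0.985 to 1.05).

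The TREs of the members gathered at the summit, the base with most fragments in a peak, which the rule did not use beyond the 300-bp limit. In the control female list 1062 sites lay within 50 bp of the summit and 267 beyond 100 bp, 3.66 times as many per base (95% interval 3.20 to 4.19). In the VEDS male list these were 2209 and 538 sites, a ratio of 3.78 (3.44 to 4.15). Within 50 bp, TREs were 7.09 and 6.10 times as dense as over the whole of chromosomes 1 to 19. At least 1 TRE lay within 50 bp of the summit in 59.2% and 61.9% of the members. In the profile of sites by distance from the summit, the control female density fell from 1.26 sites per kb of distal window in the innermost 10 bp to 0.261 at 140 to 150 bp.

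**Figure D2:**
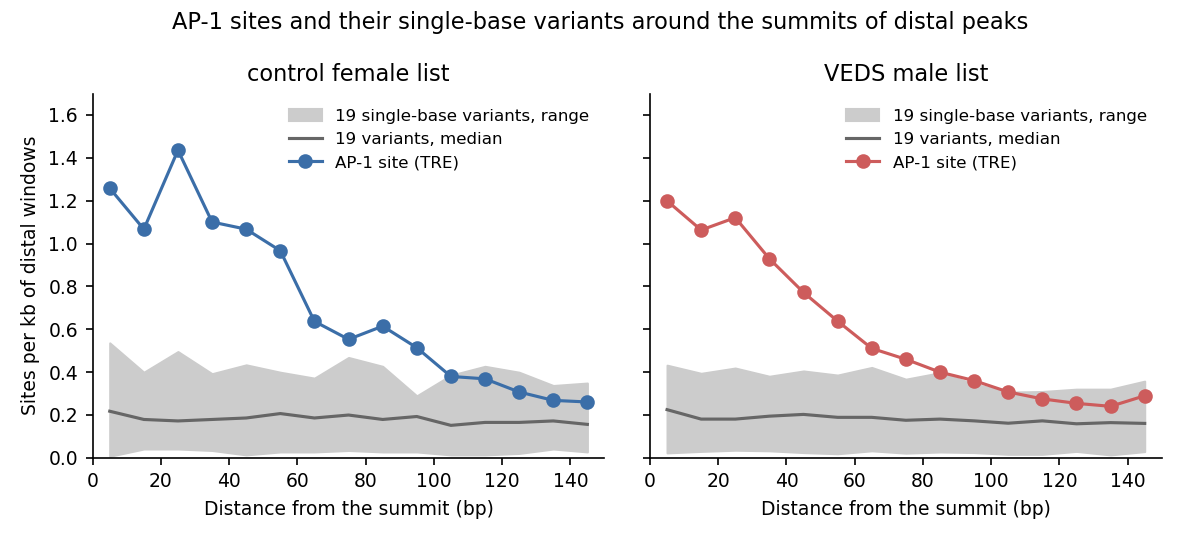
Density of TREs (coloured line) and of the 19 sequences 1 base away from it (grey line, median, and grey band, range) in sites per kb of distal window, by distance from the summit in bins of 10 bp, for the control female and VEDS male lists. The TRE lies above the band near the summit and comes down into it farther out, from 1.26 to 0.261 sites per kb in the control female list.

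The 19 distinct sequences that differ from the TRE by 1 base give a background for this gathering. They were counted in distal windows without a perfect TRE, with positions counted from 1 at the 5′ end of TGACTCA. Their ratios of density within 50 bp to density beyond 100 bp ran from 0.716 to 2.73 with a median of 1.06 in the control female list, and from 0.780 to 3.75 with a median of 1.15 in the VEDS male list. The ratio of the perfect TRE was above all 19 values, but in both lists its interval overlapped that of the highest variant. That variant was TGACGCA (T5G), with ratios of 2.73 (1.76 to 4.22) and 3.75 (2.67 to 5.28). Within 50 bp of the summit it was 7.64 and 6.34 times as dense as over the genome, against 7.09 and 6.10 times for the TRE. Next came TGACTAA (C6A), with 2.08 and 1.7, and TGAATCA (C4A), with 1.5 and 1.65. The interval lay above 1 for 5 variants in the control female list and 8 in the VEDS male list.

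The bases beside the TRE were also uneven. Read as TGAGTCA, 37.0% of the sites within 50 bp of the summit in control female members and 36.0% in VEDS male members had A or G before and C or T after, the flanks that AP-1 is known to bind well. The share was 33.0% and 29.2% for sites farther from the summit, 27% and 28.6% in promoter peaks and 21.9% over the genome's TREs. The opposite arrangement, C or T before and A or G after, was rarer near the summit (12.6% and 14.5%) than in the genome (27.3%). Of the palindromic forms, GTGAGTCAC made up 13.2% and 11.5% against 6.45% in the genome, with similar shares in promoter peaks (11.1% and 11.9%), and ATGAGTCAT 8.85% and 7.92% against 5.88% in the genome and 4.48% and 4.55% in promoter peaks. Among the sites printed above, those of *Prkag2*, *Jag1* and *Sema5b* have the first arrangement and those of *Tgfbr2* and *Gm38082* the opposite one. A TRE followed by GCA, the extension that small MAF partners of NRF2 and BACH1 prefer, made up 2.17% and 2.94% of the sites near the summit against 2.33% in the genome, and over all member sites 2.98% (2.31 to 3.85) and 2.98% (2.48 to 3.57). A TRE preceded by TGC, the same extension on the other side, made up 3.39% and 3.62% near the summit against 3.15%.

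Members were stronger than other distal peaks of the same list by every measure of height. Their median −log10 q was 7.35 against 6.33 in the control female list and 10.5 against 8.14 in the VEDS male list. The probability that a random member ranks above a random distal peak without a TRE was 56.4% (95% interval 54.9 to 58.0) and 58.0% (56.9 to 59.0), where 50% would be no difference. The fold enrichment over local background had medians of 6.67 against 6.13 and 6.57 against 5.88. The fragments at the summit had medians of 12 against 11 and 20 against 17. Peak width differed little, with medians of 220 against 224 bp and 258 against 248 bp, and GC content was equal or lower in members (medians of 49.7% against 49.7%, and 49% against 49.7%). The difference in the control female list did not hold among its strongest peaks: at a −log10 q of at least 10 the probability was 49.7% (46.9 to 52.5), while it was 54.7% (53.2 to 56.2) in the VEDS male list.

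Strength went with the number of TREs and with their place. Members with 1 TRE ranked above other distal peaks with a probability of 55.8% and 57.1%, and members with 2 TREs with 61.0% (56.6 to 65.4) and 65.0% (61.7 to 68.3). With 3 or more the values were 64.0% (49.3 to 78.7) and 65.8% (54.1 to 77.5), on few peaks. Members with a TRE within 50 bp of the summit had probabilities of 57.7% and 59.6%, and members with none that close 54.6% and 55.3%. Seen from the side of the peaks, the share with a TRE fell from the strongest to the weakest quintile of the distal peaks, through 23.5%, 21.1%, 18.8%, 17.0% and 14.1% in the control female list and through 21.2%, 17.2%, 15.7%, 13.3% and 10.6% in the VEDS male list.

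The members of highest −log10 q were mostly strong in both long lists. In the VEDS male list the first was the peak near *Gm16505*, with a −log10 q of 125 and 135 fragments at the summit. The control female peak that overlapped it had 32.9 and 37 fragments but was not itself a member. The *Gm16505* peak was followed by peaks near *Zfp869* (91.5), *Magi1*, a junction scaffold (85.5), *Cdk5rap1*, an RNA-modifying enzyme (84.1), *Gm26455* (81.5) and *Ryr2*, the calcium release channel of the sarcoplasmic reticulum (79.1). In the control female list the first was the peak near *Zfp869*, with a −log10 q of 40.9 and 49 fragments, and 91.5 and 108 fragments in the VEDS male list. An intronic VEDS male member of *Mfhas1*, with its TRE at chr8:35662233-35662239, was a peak in all 4 lists, with a −log10 q of 14.5 (control female) and 41.1 (VEDS male). The control female peak there was not itself a member.

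Most control female members were also peaks in the longer VEDS male list. This held for 1600 of 1691 (94.6%, 95% interval 93.4 to 95.6), against 91.7% of the other distal peaks, a difference of 2.94 points (1.61 to 4.12). In the opposite direction 1569 of 3378 VEDS male members had a peak in the control female list (46.4%, 44.8 to 48.1), against 35.6% of the other distal peaks, a difference of 10.9 points (9.05 to 12.7). With the VEDS male list cut to the length of the control female one, the shares were 72.8% and 74.5%, so that the asymmetry went with list length. Most of that gap went with strength. By quintile of −log10 q among distal peaks, the VEDS male members were shared in 89.2%, 55.0%, 30.5%, 17.0% and 7.63% of cases and the other distal peaks in 87.0%, 50.6%, 26.3%, 13.5% and 6.59%, so that the difference within a quintile was 1.03 to 4.36 points. Members were found in the short lists less often than other distal peaks. In the control male list 8 control female members had a peak, 0.473% against 3.06% (-2.58 points, -3.07 to -1.99), and in the VEDS female list 14 did, 0.828% against 1.51% (-0.687 points). Of the VEDS male members 8 had a peak in the control male list, 0.237% against 1.86%, and 13 in the VEDS female list, 0.385% against 0.772%.

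**Figure D3:**
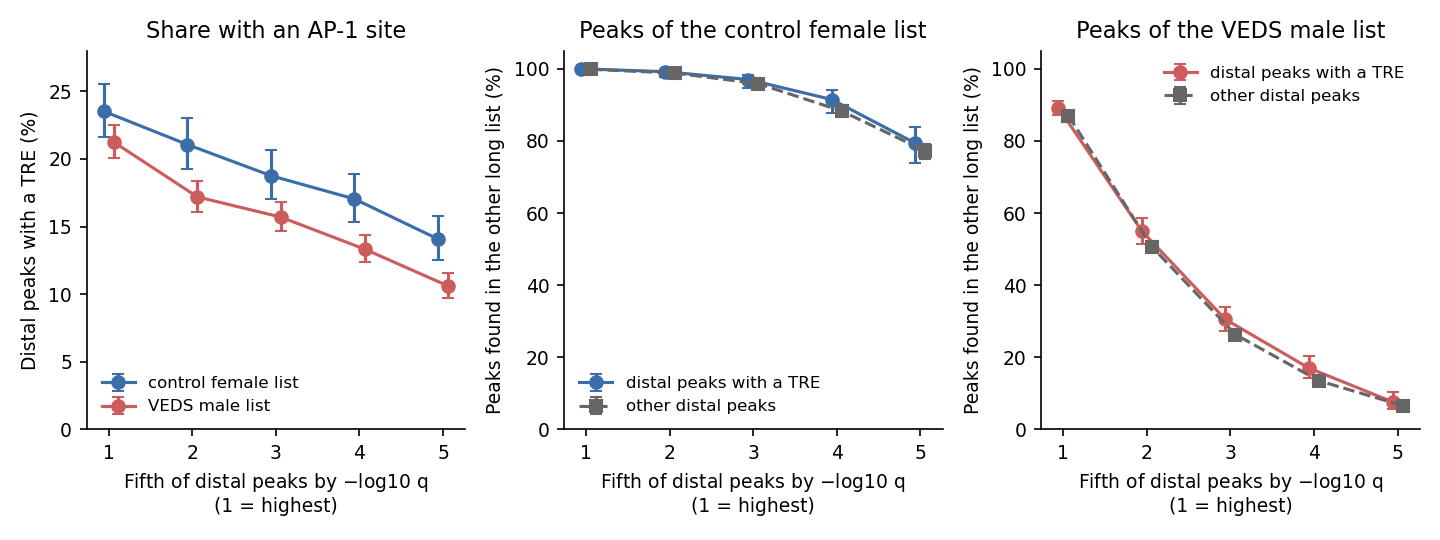
Share of distal peaks with a TRE in each list (left panel, percent), and share of members and of other distal peaks that overlap a peak of the other long list (middle and right panels, percent), by quintile of −log10 q from strongest to weakest, with 95% Wilson intervals as bars. The share with a TRE falls from 23.5% to 14.1% and from 21.2% to 10.6%, and presence in the control female list falls from 89.2% to 7.63% among VEDS male members.

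Where both lists had a peak, the site was usually the same one. Of the 1600 control female members with a VEDS male peak, the overlapping peak was itself a member in 1466 cases, and it held the same TRE in 1461 (91.3%). In 127 cases the VEDS male window held no TRE. The summits of the pairs were a median of 33 bp apart, with a 75th percentile of 65 bp.

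The ratio of fragments between the lists did not separate members from other distal peaks. The VEDS male summit held more fragments than the control female one by a median log2 ratio of 1.25 in the 1600 members (quartiles 0.93 and 1.53) and of 1.26 in the 6640 other shared distal peaks. The probability that a member had the higher ratio was 48.7% (47.1 to 50.3). For the fold enrichment, the median log2 ratios were 0.28 and 0.30, with a probability of 49.3% (47.8 to 50.9). Starting from the 1569 shared VEDS male members, the median log2 fragment ratio was 1.25 in members and 1.25 in 6481 other peaks (49.8%, 48.2 to 51.4). The general excess of the VEDS male list is that of its depth together with genotype and sex, which cannot be told apart.

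The members found in 1 long list alone came mostly from the weaker quintiles. The highest VEDS male member without a control female peak lay near *Sema5b*, which encodes a transmembrane semaphorin, with a −log10 q of 38.8, a fold enrichment of 11.6 and 53 fragments. Others among the 5 highest lay near *Schip1*, which encodes a protein that binds schwannomin (36.5), and *Pde7b*, a cyclic AMP phosphodiesterase (32.2). The highest control female member without a VEDS male peak lay near *Gm38082* in an intron of *Cux1*, with a −log10 q of 10.5 and 15 fragments, followed by *Gm2654* (9.81) and *Lin7c*, a cell polarity scaffold (8.03). A missing peak was not taken as closed chromatin.

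The short lists held few members' sites. In the control male list 6 of 754 distal peaks had a TRE (0.796%), and 643 of the 754 had over 50% of their bases masked. In the VEDS female list 14 of 205 did (6.83%), with 109 of them mostly masked. Among the peaks with fewer masked bases, 5 of 111 and 13 of 96 (13.5%) held a TRE.

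Other motifs beside the TRE were counted in the same 300-bp windows on both strands, leaving out any match that overlapped a TRE. This removes some start positions in members and none in distal peaks without a TRE, so it lowers the shares of members somewhat. For 28 motifs, the share of members was compared with that of distal peaks without a TRE. No motif was more common in members in both lists in these windows. In 500-bp windows 3 motifs were in the control female list and 4 in the VEDS male list, the NFI half-site in both. TEAD sites (CATTCCA), of a family often found beside AP-1 at enhancers, were in 8.69% of members against 9.42% of other distal peaks in the control female list (difference of -0.727 points, -2.16 to 0.851) and in 8.61% against 7.98% in the VEDS male list (0.630, -0.356 to 1.7). RUNX sites (TGTGGTT) were in 5.80% against 5.65% and 6.04% against 6.35%. SRF sites, the CArG boxes of contractile genes, were in 3.84% against 4.45% and 3.49% against 3.97%. Over all peaks of the lists, 6.09% and 6.23% held a TEAD site, 4.44% and 5.17% a RUNX site and 3.02% and 3.06% an SRF site.

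Motifs of promoters and of insulators were the ones rarer in members in both lists. The SP site (GGGCGGG), typical of housekeeping promoters, was in 5.14% of control female members against 7.42% of other distal peaks (-2.28 points, -3.42 to -0.983) and in 4.47% against 6.0% in the VEDS male list (-1.53 points). The E-box CACGTG, bound by MYC and USF factors, was in 4.14% against 5.83% and 4.32% against 5.49% (-1.69 and -1.17 points). The CTCF core (AGGNGGC after a CC and a gap of 3 bases), of the factor that marks chromatin loop boundaries, was in 2.48% against 3.95% (-1.47 points) and 2.58% against 5.96% (-3.39 points, -3.99 to -2.71). Over all peaks the shares were 28.7% and 20.4% for SP, 8.06% and 6.88% for the E-box and 5.46% and 6.21% for CTCF.

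Other motifs stood apart in 1 list. MEF2 sites, read by the MEF2 factors of muscle, were in 7.39% of control female members against 9.82% of other distal peaks (-2.43 points, -3.78 to -0.927), and in 7.82% against 8.20% in the VEDS male list (-0.383 points, -1.33 to 0.647). The homeobox site TTAATTA was the only one more common in VEDS male members, in 2.31% against 1.73% (0.579 points, 0.0817 to 1.17), and this was lost when the VEDS male list was cut to the length of the control female one (-0.144 points). FOX sites (TGTTTAC) and ZEB sites (CACCTG) were rarer in VEDS male members (-0.735 and -2.02 points), but FOX turned to 0.236 points in 500-bp windows and ZEB to 0.0698 points at equal list length. The relaxed steroid palindrome (GNACA and TGTNC with 3 bases between) was in 1.42% of control female members against 2.26% (-0.839 points, -1.43 to -0.0854) and in 1.15% of VEDS male members against 1.57%. The half-site of NFI (TTGGCA) was common in both kinds of peak, in 30.8% against 31.8% and 29.4% against 30.1%, and in 500-bp windows it was the more common in members, by 2.45 and 2.11 points. The full steroid receptor palindrome (AGAACA and TGTTCT with 3 bases between) was in no control female member against 6 of 7261 other distal peaks (0.0826%) and in 1 VEDS male member against 12 of 18260 (0.0657%), with intervals of the difference that hold 0. The VEDS male member lay 32863 bp from its nearest TSS, that of *Fbxw7*, which encodes a ubiquitin ligase subunit that targets JUN among others. It had a −log10 q of 6.95 and no control female peak. No match says only that these letters are not in the window.

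**Figure D4:**
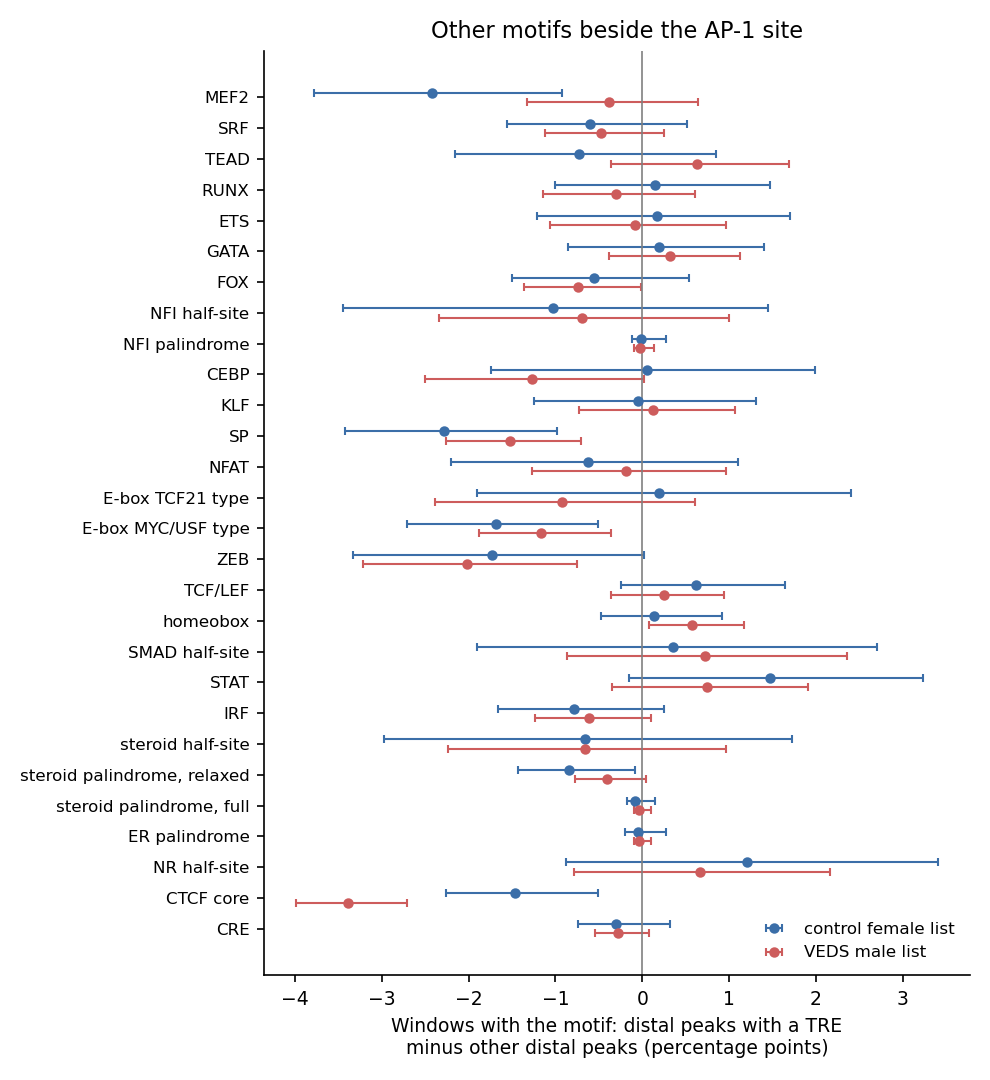
Difference between members and distal peaks without a TRE in the share of 300-bp windows that hold each of 28 motifs (horizontal axis, percentage points), with 95% intervals as bars, for the control female and VEDS male lists. The intervals of SP, the E-box CACGTG and the CTCF core lie below 0 in both lists, and no motif lies above 0 in both.

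Some members were copies of each other. Counting TREs over 2 kb apart with at least 18 of the 22 bases beside the site alike, 88 of 4033 sites (2.18%) fell into 21 families, of which 14 had 2 sites, and 60 of the 88 lay in masked bases (68.2%, against 6.65% of all member sites). The largest family had 23 sites on 16 chromosomes, 22 of them in masked bases, all 23 in windows of VEDS male members and 14 in windows of control female members. Its summits had 9 to 51 fragments in the VEDS male list (median 24) and 8 to 22 in the control female list (median 12.5). The 4 with most fragments in the VEDS male list are shown so that the likeness of the flanks around the TRE, in capitals, can be seen (GRCm38). *Itga8* encodes an integrin chain of smooth muscle and *Mast4* a microtubule-associated kinase.
Itga8 (chr2:12321151-12321157, minus strand): ttgtggagctcTGAGTCAgagtctccatg
Gm49236 (chr14:122076016-122076022, plus strand): ttttggagctcTGAGTCAgagtctccatg
Mast4 (chr13:103260625-103260631, plus strand): ttttggagctcTGAGTCAgagtctccata
Phtf2 (chr5:20792354-20792360, plus strand): ttgtggagctcTGAGTCAgagtctccacg
Over chromosomes 1 to 19, 242 TREs were as close to the consensus of this family, and 16 of them were in members (6.61%, 4.11 to 10.5), against 1.02% of all TREs. The consensus was built from the members, so that this is a description only. The next family, of 18 sites at 12 places and including the array near *Kdelr2*, had 3062 such TREs and 16 in members (0.523%). A family of 5 unmasked identical sites lay on chromosome 13 near *Gm6554*, *Gm47412*, *Gm904*, *Gm8765* and *Gm2654*, where reads cannot be placed with certainty on 1 copy.

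**Figure D5:**
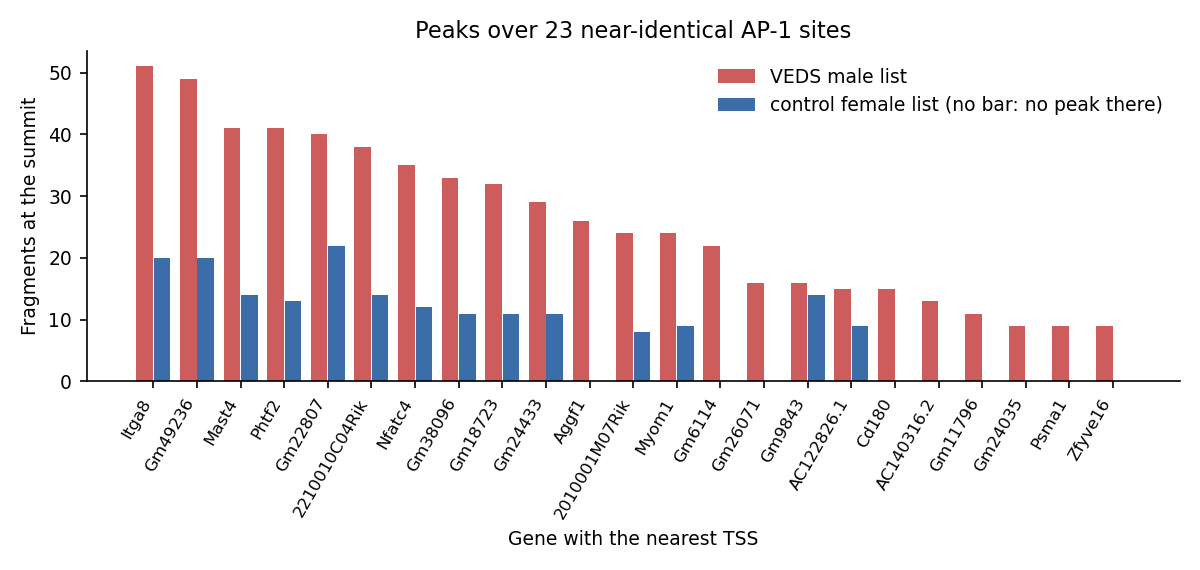
Fragments at the summit (vertical axis) of the members over the 23 sites of the largest family (horizontal axis, named by nearest gene), with 1 bar for the VEDS male and 1 for the control female list. A missing bar, labelled as no peak in the legend, means that no member of that list holds the site in its window. A peak without member status may still lie there. VEDS male bars run from 51 down to 9 fragments, and the 14 control female bars from 22 to 8.

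The members lay nearest 1475 genes in the control female list and 2755 in the VEDS male list, and for 49.7% and 53.0% of the members the nearest gene was protein-coding. Of the protein-coding genes that were nearest to at least 1 distal peak, 722 of 2655 (27.2%) had a member in the control female list and 1395 of 5053 (27.6%) in the VEDS male list. These percentages are the background for the gene groups below, together with the share of such distal peaks that were members, 18.2% and 15.5%. Most genes had 1 member, 1290 and 2292 of them, and 29 and 112 had 3 or more. The most were near *Mast4*, with 2 of 7 control female and 8 of 20 VEDS male distal peaks. *Erg*, an endothelial ETS factor, had 4 of 10 and 5 of 18, *Itga8* had 3 of 6 and 5 of 13, *Cacna1c*, the L-type calcium channel of smooth muscle, 3 of 8 and 5 of 19, *Lrrfip1*, an actin- and nucleic acid-binding regulator, 3 of 4 and 5 of 17, and *Sox5*, a SOX transcription factor, 1 of 3 and 6 of 10. A gene with more distal peaks had more chances of a member, and the nearest gene is a position, not a target.

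Genes of AP-1 itself were near the background in the VEDS male list, on few genes. In the list of AP-1 and related bZIP genes, 0 of 9 genes with a distal peak had one in the control female list and 3 of 11 in the VEDS male list. These were *Fosb*, a FOS partner (−log10 q 5.43), *Bach1*, a bZIP repressor of haem and oxidative stress genes (5.28), and *Jdp2*, a repressive JUN partner (2.5), all low. With each peak given to the nearest protein-coding TSS instead, the counts were 3 of 10 and 8 of 15, against 32.5% and 33.3% of all such protein-coding genes.

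Genes known as AP-1 targets had a member in 4 of 11 and 9 of 16 cases, and 5 of their 13 and 11 of their 29 distal peaks were members (38.5% and 37.9%, with 95% intervals of 17.7 to 64.5 and 22.7 to 56.0). *Gclc*, an enzyme of glutathione synthesis, had a member with a −log10 q of 5.70 in the control female list and 27.1 in the VEDS male list, and *Plaur*, the urokinase receptor, 5.30 and 17.5.

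Contractile genes of VSMC were the list with the smallest share of members among those with over 20 distal peaks in the control female list, 2 of 26 peaks (7.69%), and had 7 of 69 in the VEDS male list (10.1%). The strongest was the intergenic peak 9993 bp from *Acta2*, which encodes smooth muscle α-actin. It was the only distal peak of that gene and also held SRF and TEAD sites. Its −log10 q was 16.8 with 23 fragments in the control female list and 54.6 with 76 fragments in the VEDS male list, and the fold enrichment was 9.85 and 11.9. *Mylk*, the myosin light chain kinase, had a member in both lists (5.02 and 9.46), and *Cald1*, an actin-binding protein, had members in the VEDS male list alone, the strongest with 12.6.

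VSMC regulators had a member in 5 of 13 and 7 of 16 genes. Of their distal peaks, 8 of 29 and 13 of 61 were members (27.6% and 21.3%). The intervals of these shares, 14.7 to 45.7 and 12.9 to 33.1, held the background of 18.2% and 15.5%. Counted by the nearest protein-coding TSS, 13 of 69 and 25 of 142 were members (18.8% and 17.6%), against 18.9% and 15.6%. *Myocd*, the SRF coactivator that drives the contractile programme, had 2 of 3 distal peaks with a TRE in the control female list and 4 of 8 in the VEDS male list. Its strongest, intronic and with a TEAD site, had a −log10 q of 23.4 with 31 fragments and 49.1 with 64 fragments, and another with its TRE at chr11:65246875-65246881 had 19.6 and 33.7. *Jag1*, a Notch ligand of smooth muscle and endothelium, had members in 3 of 3 and 3 of 5 distal peaks, the strongest with 11.4 and 24.3. *Rbpms*, a splicing regulator of VSMC, had 1 in each list (3.66 and 11.7).

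Matrix genes had members of middle to high −log10 q, below the 10 highest of either list. Collagen genes had a member in 6 of 9 and 7 of 12 cases, and 9 of 31 and 15 of 54 of their distal peaks were members (29.0% and 27.8%). At *Col18a1*, a basement membrane collagen, the −log10 q was 26.6 with 36 fragments in the control female list and 57.3 with 81 fragments in the VEDS male list. *Col4a1*, also of the basement membrane, had 16.8 and 29.2, and *Col15a1*, which links basement membranes to fibrils, had 15.3 and 41.0. In the list of elastic fibre genes 4 of 11 and 8 of 14 had a member, among them *Lox*, the collagen and elastin cross-linking enzyme (6.02 and 18.9), and *Ltbp1*, which anchors latent TGF-beta (10.3 and 19.4). Of the matrix proteases and inhibitors 8 of 15 and 9 of 17 had one, with *Adam9* (26.0 and 41.7), *Adamts15* (18.6 and 38.5) and *Adamts1* (18 and 37.3) among them. Of the distal peaks of these protease and inhibitor genes, 9 of 30 and 11 of 49 were members (30% and 22.4%).

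Among integrin and focal adhesion genes, 9 of 21 and 15 of 23 had a member. Per peak, 13 of 59 and 32 of 145 of their distal peaks were members (22.0% and 22.1%). These genes had a median of 1 and 4 distal peaks, against 1 in each list over all protein-coding genes. *Itgb5*, an integrin chain that binds vitronectin, had 3 of 6 and 4 of 10 distal peaks with a TRE, the strongest with a −log10 q of 13.2 and 22 fragments in the control female list and 52.5 and 73 fragments in the VEDS male list. *Itga9*, another integrin chain, had 1 of 15 and 3 of 34, the strongest with 23.4 and 36.1. *Tns1*, a focal adhesion protein, had 1 of 6 and 5 of 23.

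TGF-beta and SMAD genes were near the background when counted by gene and nearest TSS, with 4 of 16 and 5 of 18. Per peak, 4 of 28 and 7 of 67 of their distal peaks were members (14.3% and 10.4%), against 18.2% and 15.5%. With the nearest protein-coding TSS, 10 of 20 and 12 of 25 of these genes had a member, against 32.5% and 33.3%. *Tgfbr2*, the type II receptor, had an intronic member with a −log10 q of 9.41 and 15 fragments in the control female list and 45.8 and 57 fragments in the VEDS male list. *Tgfb2*, a ligand, had 10.3 and 24.5, and *Tgfbr1*, the type I receptor, 4.95 and 15.4. Genes of TEAD, YAP and TAZ had a member in 4 of 10 and 8 of 12 cases, among them *Ptpn14*, a YAP inhibitor (12.2 and 18.9), and *Tead3* (8.18 and 15.1). Of the distal peaks of the TEAD, YAP and TAZ genes, 6 of 20 and 14 of 46 were members (30% and 30.4%).

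The lists of stress and signalling genes were small, and by the nearest TSS a few of their genes had a member. Of MAPK stress genes 2 of 6 and 3 of 11 had a member, such as *Gadd45g*, a growth arrest gene with 2 TREs in the window (7.45 and 26.4), and *Map3k5*, the kinase ASK1 (8.27 and 20). Of immediate-early genes 2 of 7 and 4 of 11 did, led by *Ier3*, an early stress-response gene, with a −log10 q of 27.8 and 37 fragments in the control female list and 60.3 and 80 fragments in the VEDS male list. Of AMPK and FoxO genes 2 of 8 and 3 of 10 did. *Prkag2*, a regulatory subunit of the energy sensor AMPK, had an intronic member with 18.3 and 25 fragments in the control female list and 64.1 and 81 fragments in the VEDS male list, and *Foxo3*, a FoxO factor, had 3.83 and 10.4. Of steroid receptor and target genes 3 of 7 and 2 of 7 did, among them *Esr1*, the estrogen receptor α (6.29 and 17.6), and *Zbtb16*, a glucocorticoid-induced factor (10.3 and 28.5). Per peak, members made up 14.3% and 9.09% for MAPK stress and 14.3% and 13.8% for immediate-early genes. They made up 17.6% and 13.3% for AMPK and FoxO and 21.4% and 10.7% for steroid genes. With the nearest protein-coding TSS, 9 of 16 and 13 of 20 MAPK stress genes had a member, and 5 of 12 and 8 of 14 immediate-early genes. AMPK and FoxO genes then had 2 of 9 and 4 of 12, and steroid genes 5 of 11 and 6 of 12, against 32.5% and 33.3%.

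Genes of other cell types had members too. Endothelial genes had one in 3 of 4 and 3 of 8 cases, with *Erg* the strongest (20.1 and 61.3), then *Vwf*, von Willebrand factor (9.6 and 22.0), and *Pecam1*, an adhesion molecule of endothelium (7.46 and 18.9). Fibroblast genes had none in the control female list (0 of 4) and 2 of 7 in the VEDS male list, both low. Adipocyte genes had 0 of 1 and 0 of 3, immune genes 0 of 0 and 0 of 3, and striated muscle genes 0 of 1 and 0 of 1. The counts depended on how peaks were given to genes. With the nearest protein-coding TSS, fibroblast genes had a member in 4 of 8 and 6 of 10 cases, and endothelial genes in 3 of 6 and 4 of 12. Adipocyte genes then had 3 of 6 and 1 of 6, immune genes 1 of 4 and 1 of 6, and striated muscle genes 0 of 1 and 0 of 2. The background was 32.5% and 33.3%. These counts rest on few genes, and the difference between a list and the background was not tested.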

How the data were processed

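ATAC-seq peak lists of aortic nuclei at P60 were analyzed, 1 per library, with a female and a male library of each genotype and 2 mice pooled in each. The authors called narrow peaks with MACS2 on mm10 (GRCm38), per the labels and submitters' processing notes, after barcode-aware removal of duplicates and correction of the Tn5 cut sites, and excluded blacklisted regions. The aligner and the threshold are not given in the sources used here. The deposited columns give the summit, a score, the fold enrichment (a ratio to that library's local background), −log10 p and −log10 q, of which the lowest lies near a q of 0.05. Total fragments per library are unknown. Fragments per summit were worked back from the deposited fold enrichment and −log10 p, with a whole number that fits both for 99.9% of the peaks in the long lists, and these small numbers limit the precision.

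TREs and 28 motifs were searched on both strands of the 300-bp window around each summit. Half-sites lie inside the palindromes built from them and were counted under both. MEF2 and SRF were searched as degenerate consensus sequences. Matches overlapping a TRE were left out, which removes some start positions in members. Windows came from GRCm38, TSS and genes from GENCODE vM21, and lower-case bases of that reference were taken as masked. A summit counted as intronic or exonic in any annotated gene, which need not be the gene with the nearest TSS. Presence in another list meant an overlap of at least 1 bp. Shares have Wilson intervals, differences Newcombe intervals, probabilities of a higher rank Hanley-McNeil intervals and ratios of densities Poisson intervals. Peaks of 1 library are not replicates, so no test between genotypes was made. Code was tested on simulated data.

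The members and the gene lists were chosen with earlier results of these data known. Named members were the 10 of highest −log10 q in each long list, the 10 highest with no peak in the other long list, the 10 highest with a peak in a short list, the 5 with most TREs and those with a full steroid palindrome. Named genes were the 10 with most members in all and up to 4 with most members in each gene list. Some items under this rule are not reported here. The search for near-identical sites, the ratio of fragments between lists and the assignment to the nearest protein-coding TSS were added after the other values were seen. Alternatives were stricter −log10 q of 5 and 10, windows of 200 and 500 bp, distances over 10 kb, peaks with at most 50% masked bases, equal list length, weighting by GC content, other rules of motif overlap and presence, and leaving out each library. The software was Python 3.11.15 and its packages pandas 2.3.3, numpy 2.4.6, pysam 0.24.0, scipy 1.17.1 and matplotlib 3.10.9.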

Additional observations from a re-analysis of the deposited data

How the results depend on the processing

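The share of distal peaks with a TRE moved with the processing, always in the same direction in both lists where both were run. In the control female and VEDS male lists it was 21.1% and 17.2% at a −log10 q of at least 5, 23.2% and 18.9% at 10, 16.4% and 13.4% in windows of 200 bp, 22.1% and 18.6% in windows of 500 bp, 20% and 16.5% among peaks with at most 50% masked bases, and 19.3% in the VEDS male list at equal length. The probability that a member ranks higher was 49.7% in the control female list at a −log10 q of at least 10.

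Presence in the other long list, for control female and VEDS male members, was 96.8% and 42.8% at a −log10 q of at least 5, 96.8% and 29.1% at 10, 72.8% and 74.5% at equal length, and 86.7% and 43.3% where the overlapping peak had to be a member. Leaving out each library in turn, the share of control female members found in a VEDS list was 0.828% to 94.6%. That of VEDS male members found in a control list was 0.237% to 46.4%. The low values were those of the short VEDS female and control male lists alone, without the other long list.

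The number of motifs more common in members was 0 in the control female list and 1 in the VEDS male list. It was 1 and 0 at a −log10 q of at least 10 and 3 and 4 in windows of 500 bp. In the VEDS male list it was 0 in windows of 200 bp, beyond 10 kb, with at most 50% masked bases, at equal length and weighted by GC content, and 2 with overlaps counted. Signs turned for the NFI half-site (2.45 and 2.11 points) and FOX (0.236 points, VEDS male) in windows of 500 bp, and for ZEB (0.0698 points) and homeobox (-0.144 points) in the VEDS male list at equal length. With the nearest protein-coding TSS, chosen after seeing the data, 32.5% and 33.3% of genes with a distal peak had a member. Of the other differences in single motifs under the alternatives, 492 kept their direction and their side of 0 with the interval, 36 came to have an interval clear of 0 and 27 lost one. The cause of these changes was not tested.

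The limits are depth, with a median of 12 fragments at a control female member's summit, 1 long list per genotype, and a motif search that sees letters and not binding.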
